A study of Mus musculus with 5 samples.

Results

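The genes described here are 10 components of bone morphogenetic protein (BMP) signalling: the ligands Bmp4, Bmp6 and Bmp7, the secreted antagonist Nog, the receptor Bmpr1a, the transducer Smad1, and the target genes Id1, Id2, Id3 and Id4. They were found as every probe set whose only gene symbol in the platform annotation is one of these names, which gave 23 of the 45101 probe sets of the array. Bmpr1a had 6 probe sets, Bmp7, Smad1, Id2 and Id4 had 3 each, and Bmp4, Bmp6, Nog, Id1 and Id3 had 1 each. By its brightest probe set, every gene except Bmp7 passed the intensity filter, so 9 of the 10 were tested among 11063 genes. The tissue means of Bmp4, Bmp6 and Nog lay below that filter, so these 3 passed it only through their signal in culture. Their differences between culture and tissue were favoured by the filter and are given as values only.

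RNA came from the ventricular and subventricular zones of the rostral medial ganglionic eminence (MGE), a ventral forebrain region that generates cortical interneurons and cholinergic neurons. The mouse embryos were at E15.5 (day of gestation) and were wild type (WT) or mutant for Dlx1 and Dlx2, linked homeodomain factor genes of forebrain GABAergic development (written -/- in the sample titles). There were 5 arrays: 1 of WT tissue, 2 of mutant tissue, 1 of primary neuronal cultures from WT tissue and 1 of such cultures from mutant tissue. The title of the WT tissue array leaves the second allele blank, while its description says WT, and the labels give neither strain, days in culture nor how many embryos were pooled. No label says that different embryos were used for the 2 mutant tissue arrays, so their spread may be technical, and no other group has a replicate error of its own.

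The targeted genes followed the labels on every array: the deposited signal of Dlx1 was 3278 in WT tissue and 603 in WT culture, against 0.921 to 2.80 on the 3 mutant arrays. Of 10 MGE genes, Lhx6, a LIM-homeodomain factor of MGE interneurons, was bright on every array (374 to 1321), whereas Nkx2-1, which specifies the region, was dim (12.6 to 78.4). The summed signal of 6 neuronal markers was 12615 to 14746 in tissue and 10736 to 10982 in culture. That of 8 radial glia and progenitor markers was 24737 to 26657 in tissue and 26475 to 31694 in culture. Neither preparation was thus free of progenitors or of neurons. The second sum joins opposite moves: in culture 5 of the 8 were called higher and 2 lower. In WT, Vim read 6366 in tissue and 10975.5 in culture, Sox2 5864 and 2817, and Hes5 3885 and 96.5. Median array signals were 26.2 to 29.8. In such bulk samples, more cells of a type and more RNA per cell cannot be told apart. Xist, expressed from the inactive X chromosome, also moved with genotype. It read 625 for WT tissue, 106 and 143 for mutant tissue, then 318 for WT and 97.2 for mutant culture. Other sex-linked genes were higher in the mutants of each preparation. Kdm5d read 48.0 for WT tissue, 161 and 132 for mutant tissue, then 31.8 for WT and 71.6 for mutant culture. Uty read 45.3, 82.2 and 77.0, then 33.5 and 49.9 in the same order. Eif2s3y read 36.8, 174 and 181, then 140 and 206. It was low in WT tissue alone, the pattern given below for Id2. The part of embryo sex in the results below was not tested.

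BMPs are secreted dimers that bind a complex of type I receptors such as Bmpr1a and type II receptors; the type I receptor phosphorylates Smad1, Smad5 or Smad9, which enter the nucleus with Smad4 and switch on target genes, the Id genes foremost. Noggin, the product of Nog, binds BMPs outside the cell and blocks them. Id proteins are helix-loop-helix proteins with no DNA-binding region: they pair with E proteins such as Tcf3, Tcf4 and Tcf12 and keep proneural bHLH factors from acting, which holds progenitors back from neuronal differentiation. In the forebrain BMP signals are known from the dorsal midline, and Id genes from the ventricular zone and from some neurons and glia.

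The RefSeq promoters (build GRCm38.p6) of 4 of these genes are shown because the results turn on them: Id2 and Id4 differed with genotype, and Id3 and Bmp6 are described below for their higher signal in culture. The 250 bases before the annotated start are written 5′ to 3′ on the gene's strand, at chr12:25096093-25096342 (minus strand) for Id2, chr13:48260866-48261115 (plus) for Id4, chr4:136143572-136143821 (plus) for Id3 and chr13:38345466-38345715 (plus) for Bmp6. Capitals mark, on either strand, the letters GGCGCC (a GC-rich element bound by Smad1 and Smad5), the letters CAGAC (the Smad box) and the letters TAATT (a homeodomain core).
Id2: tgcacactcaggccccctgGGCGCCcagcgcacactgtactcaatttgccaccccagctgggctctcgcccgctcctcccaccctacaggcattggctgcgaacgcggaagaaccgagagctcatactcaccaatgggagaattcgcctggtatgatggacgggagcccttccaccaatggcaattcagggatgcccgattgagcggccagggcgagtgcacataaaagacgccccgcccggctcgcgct
Id4: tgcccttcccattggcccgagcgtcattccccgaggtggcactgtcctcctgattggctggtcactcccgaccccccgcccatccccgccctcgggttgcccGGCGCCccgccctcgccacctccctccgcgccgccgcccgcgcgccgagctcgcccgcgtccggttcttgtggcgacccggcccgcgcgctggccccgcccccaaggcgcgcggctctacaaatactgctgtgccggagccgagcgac
Id3: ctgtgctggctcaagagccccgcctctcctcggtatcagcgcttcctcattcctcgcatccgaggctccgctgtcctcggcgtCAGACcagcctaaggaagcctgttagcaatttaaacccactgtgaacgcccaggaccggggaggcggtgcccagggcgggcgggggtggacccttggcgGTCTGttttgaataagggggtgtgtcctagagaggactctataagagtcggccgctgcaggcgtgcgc
Bmp6: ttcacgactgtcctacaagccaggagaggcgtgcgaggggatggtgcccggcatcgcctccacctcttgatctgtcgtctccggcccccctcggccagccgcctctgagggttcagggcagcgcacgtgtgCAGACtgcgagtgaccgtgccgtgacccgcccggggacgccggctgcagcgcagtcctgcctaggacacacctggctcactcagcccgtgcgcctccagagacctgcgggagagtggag

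GGCGCC occurred 1 time each in the windows of Id2 and Id4, 231 and 148 bases before the start, and not in those of Id3 or Bmp6. The window of Bmpr1a, not shown, also held GGCGCC, 198 bases before the start. Of 32851 promoter windows of this length, 9.59% held it. CAGAC occurred 2 times in Id3 and 1 time in Bmp6, and 42.2% of all windows held it. TAATT was in none of the 4 windows but in that of Smad1, against 25.0% of all windows. CCAAT, the box bound by NF-Y, occurred 3 times in Id2, 2 times in Id4 and in neither Id3 nor Bmp6, against 33.8% of all windows. It also occurred 1 time each in Bmpr1a and Smad1. Matches of different motifs did not share bases in the 4 windows shown. The windows were GC-rich, at 62.8% for both Id2 and Id3, 68.8% for Bmp6 and 75.6% for Id4, against a median of 52.4%. These are matches of letters only. Bmp4, Bmpr1a and Smad1 also had a promoter in the table, and Id1, Bmp7 and Nog did not.

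**Figure D1:**
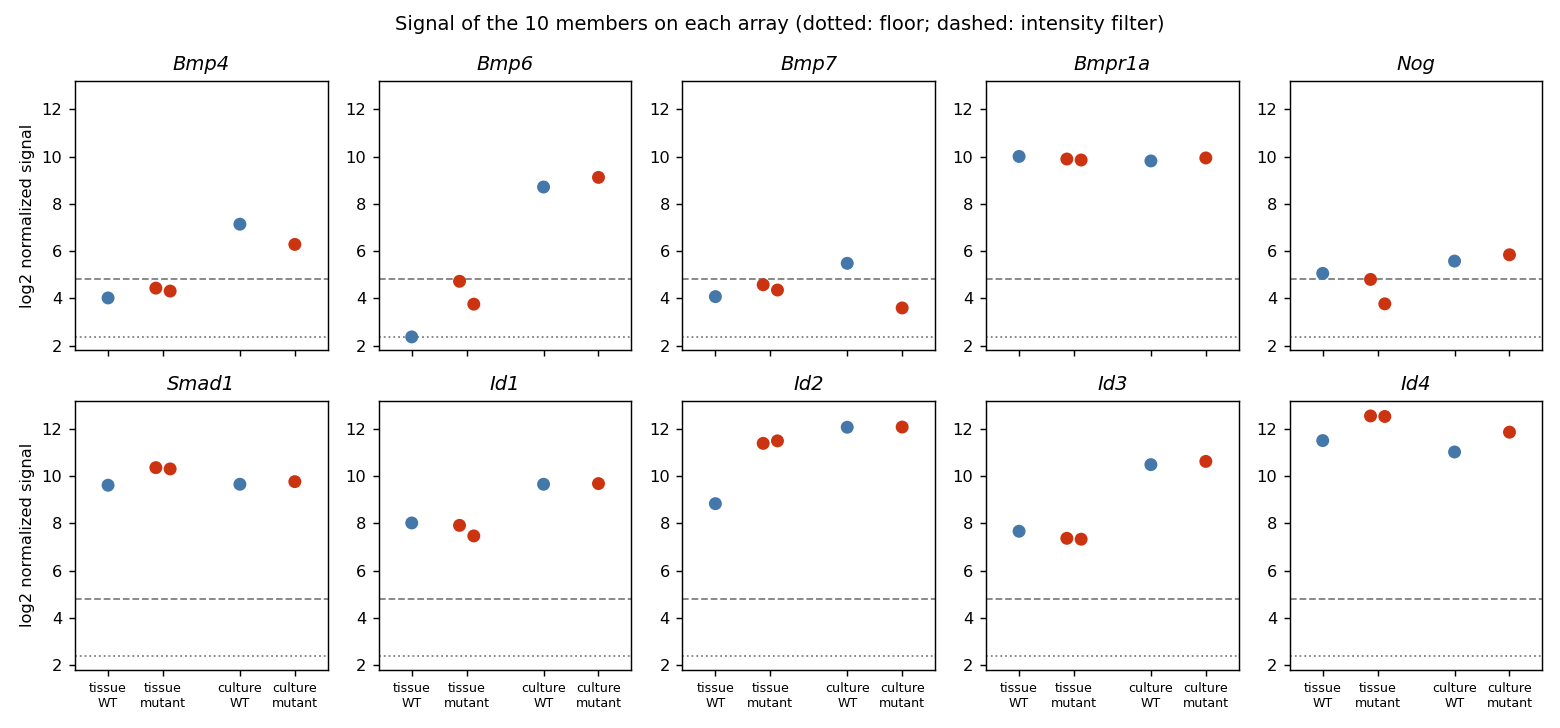
Log2 signal after quantile normalization (vertical axis) of the brightest probe set of each of the 10 genes on the 5 arrays, blue for WT and red for mutant, with the floor of 2.36 dotted and the intensity filter of 4.80 dashed. Id2 is low in WT tissue alone, Id4 is higher in mutants in both preparations, and Bmp4, Bmp6, Id1 and Id3 are high in both cultures.

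Loss of Dlx1 and Dlx2 went with higher signal of 2 of the 4 Id genes. Id4, the family member known from neural stem cells and glial progenitors, rose in mutants in tissue and across both preparations. Id2, known from later born neurons and from many BMP-responsive cells, rose in mutant tissue by 6.09-fold and differed by 0.01 on the log2 scale between the cultures. Id1 and Id3, the classical immediate targets of BMP signalling, did not pass the test for genotype in any comparison.

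For Id4, the brightest probe set gave deposited signals of 2999 for WT tissue, 5947 and 5347 for mutant tissue, then 2149 for WT and 3864 for mutant culture. Every mutant array lay above the WT array of its preparation, and mutant culture also lay above WT tissue. In tissue the rise was 1.03 ± 0.07 on the log2 scale (SE of the limma fit; 2.04-fold, adjusted p = 1.5e-06), far more than the 0.02 between the mutant arrays. In culture the difference was 0.84 (1.79-fold, 1 array against 1, no test). Across both preparations it was 0.95 ± 0.08 (1.93-fold, adjusted p = 0.0018), and the effect in culture minus that in tissue, −0.19 ± 0.10, did not pass (adjusted p = 0.35). Left with either of the mutant tissue arrays, Id4 still passed across both preparations (adjusted p = 0.014 and 0.013). Across both preparations Id4 was the 1 member called of 9 tested, where 1.07% of all genes tested were called (0.814% higher).

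The other probe sets of Id4 gave the same direction. The second probe set read 1943 for WT tissue, 3794 and 3893 for mutant tissue, then 2136 for WT and 3279 for mutant culture. The third read 782 for WT tissue, 1415 and 1631 for mutant tissue, then 786 for WT and 1096 for mutant culture. In a fit over all 21602 probe sets above the filter, they rose in tissue by 1.08 ± 0.07 (adjusted p = 2.5e-05) and by 0.97 ± 0.11 (adjusted p = 0.00049). Across both preparations, where 0.690% of all probe sets tested were called, the second passed (0.88 ± 0.11, adjusted p = 0.014) and the third did not (0.76 ± 0.14, adjusted p = 0.062). All 3 probe sets were designed from 1 sequence record, so they are not independent of each other.

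For Id2, the brightest probe set read 450 for WT tissue, 2602 and 2698 for mutant tissue, then 4510 for WT and 4506 for mutant culture. WT tissue stood alone at the low end, and the cultures lay above all tissue arrays. In tissue Id2 rose in mutants by 2.61 ± 0.09 (adjusted p = 6.6e-09), against 0.11 between the mutant arrays. In culture the difference was 0.01. The test of the difference between these genotype effects passed, at −2.60 ± 0.12 (adjusted p = 1.3e-05), so across both preparations the averaged effect of 1.49 ± 0.46 (adjusted p = 0.22) describes neither. A second probe set read 122 for WT tissue, 734 and 726 for mutant tissue, then 1272 for WT and 1234 for mutant culture, a tissue difference of 2.58 ± 0.13. The third was dim (19.1 in WT tissue, 32.5 and 49.4 in mutant tissue), differed by 1.14 ± 0.46 in tissue and did not pass (adjusted p = 0.15).

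**Figure D2:**
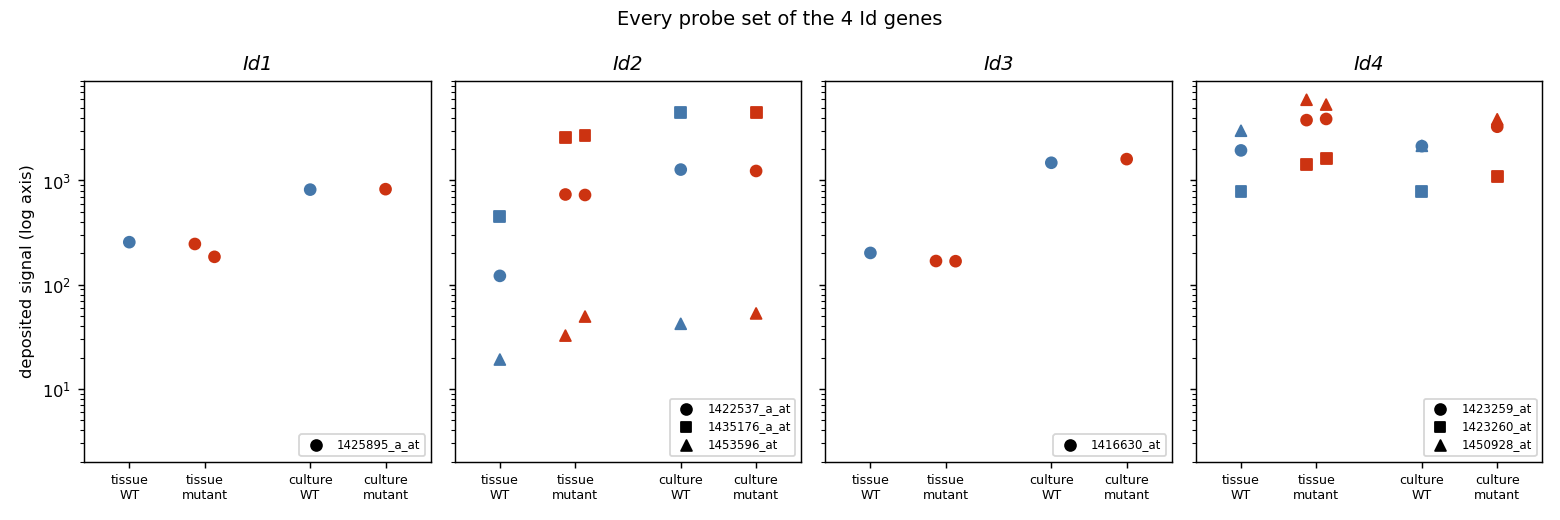
Deposited signal (log axis) of all 8 probe sets of Id1, Id2, Id3 and Id4 on the 5 arrays, blue for WT and red for mutant, with a symbol for each probe set. The 3 Id4 probe sets sit higher in mutants in both preparations, and the 2 brighter Id2 probe sets are low in WT tissue alone.

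The single probe set of Id1 read 256 for WT tissue, 246 and 185 for mutant tissue, then 817 for WT and 825 for mutant culture. The tissue difference of −0.32 ± 0.19 did not pass (adjusted p = 0.29) and was smaller than the 0.45 between the mutant arrays. Id3 read 202 for WT tissue, 169 and 168 for mutant tissue, then 1479 for WT and 1603 for mutant culture. Both mutant tissue arrays lay below the WT array, yet the difference of −0.32 ± 0.17 did not pass (adjusted p = 0.25). In culture the genotypes differed by 0.03 for Id1 and by 0.14 for Id3.

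Among the signalling components, Smad1, the BMP-specific transducer, rose in mutant tissue by 1.64-fold. Its brightest probe set read 766 for WT tissue, 1292 and 1224 for mutant tissue, then 817 for WT and 875 for mutant culture. The mutant tissue arrays stood above the other 3 arrays, which lay close together. The tissue difference was 0.72 ± 0.09 (adjusted p = 0.00029) and the culture difference 0.11. The effect in culture minus that in tissue was −0.61 ± 0.14 (adjusted p = 0.044), a call lost in the fit over all probe sets (adjusted p = 0.069), which called 2.62% of them. Of its other probe sets, 1 rose in tissue by 0.62 ± 0.11 (adjusted p = 0.0065), while the other read 246 in WT tissue against 226 and 344 in mutant tissue and did not pass (0.13 ± 0.22, adjusted p = 0.76). With the probe sets of a gene averaged, the rise of Smad1 in tissue was 0.49 and no longer passed (adjusted p = 0.096).

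Bmpr1a, the type I receptor, was bright on every array: its brightest probe set read 1015 for WT tissue, 947 and 918 for mutant tissue, then 916 for WT and 998 for mutant culture. The tissue difference was −0.13 ± 0.10 (adjusted p = 0.40) and the culture difference 0.13. None of its 5 probe sets above the filter passed in any comparison, and the sixth lay at the floor on every array. The probe sets did not move together in culture, where 1 was higher in the mutant (137 in WT, 247 in mutant) and another lower (55.3 in WT, 24.3 in mutant), with 1 array of each genotype and no test.

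The ligands and the antagonist were dim in tissue. Bmp4, a dorsal midline BMP, read 17.4 for WT tissue, 21.9 and 19.3 for mutant tissue, then 136 for WT and 76.4 for mutant culture. Its tissue values all lay below the array medians, and the genotype difference of 0.35 ± 0.59 did not pass (adjusted p = 0.74). In culture it was 0.86 lower in the mutant. Bmp6 read 2.4 in WT tissue, below the floor of 5.15, then 26.8 and 12.97 for mutant tissue, 413 for WT and 550 for mutant culture. The mean of the mutant tissue arrays was at least 3.66-fold above WT tissue, which was set to the floor, but the 2 arrays differed by 0.97 and the test did not pass (adjusted p = 0.16). With a lower floor, at the 10th percentile, it passed narrowly (3.05 ± 0.98, adjusted p = 0.0496).

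Nog read 35.3 for WT tissue, 28.2 and 13.1 for mutant tissue, then 44.8 for WT and 55.9 for mutant culture. The mutant tissue arrays differed from each other by 1.03, more than their mean differed from WT (−0.77 ± 0.58, adjusted p = 0.42). The 3 probe sets of Bmp7 were too dim to test, with signals of 0.9 to 41.9. The brightest was higher in WT than in mutant culture (41.9 against 12.3) and another lay the other way (11.0 against 20.6). No direction is given for Bmp7.

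In tissue, then, 3 of the 9 tested genes were higher in mutants (Id2, Id4 and Smad1) and 0 lower, where 15.3% of all genes tested were called, 8.59% higher and 6.70% lower. The median tissue difference of the 9 was 0.35, against 0.00 over all genes tested. For 4 genes (Bmp6, Smad1, Id2 and Id4) every mutant array lay above the WT array of its preparation in normalized signal, against 22.9% of all genes tested. For Id2 this rests on 0.01 in culture, where the deposited signals run the other way (4510 in WT, 4506 in the mutant), as does its second probe set (−0.04). In culture 0 of the 9 differed by 2-fold, against 3.68% of all genes tested. The interaction was called for 2 of the 9 (Id2 and Smad1, both lower in culture), against 4.48% of all genes tested (2.27% lower). These genotype calls depended on the test's prior: without the intensity trend in limma's variance prior, the adjusted p in tissue was 0.068 for Id2, 0.11 for Id4 and 0.13 for Smad1, and with dim genes tested too it was 0.069, 0.10 and 0.14. For Id4 across both preparations it was 0.16 and 0.29.

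**Figure D3:**
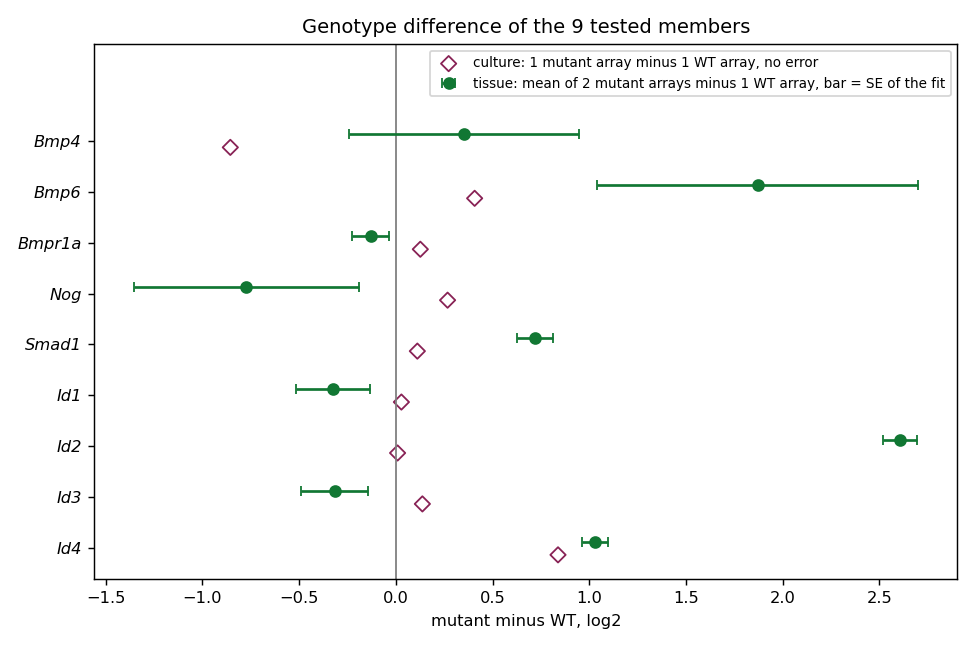
Difference between mutant and WT on the log2 scale (horizontal axis) for the 9 tested genes, green circles for tissue with the SE of the limma fit and open diamonds for culture, where 1 array of each genotype gives no error. Id2 stands at 2.61 in tissue and 0.01 in culture, and Id4 at 1.03 and 0.84.

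Other genes moved with genotype in tissue beside these. All 9 cell cycle genes tested were lower in mutant tissue (summed signal 20407 in WT, 12683 and 11864 in mutant) and none by genotype across both preparations (14845 in WT culture, 16263 in mutant culture). Of 6 neuronal markers 4 were higher in mutant tissue. Of 8 radial glia and progenitor markers 3 were higher in mutant tissue and 0 lower, and 0 passed across both preparations. Nes rose by 3.38 (adjusted p = 5.8e-05), Fabp7 by 0.32 (adjusted p = 0.0032) and Sox2 by 0.25 (adjusted p = 0.034). Nes lay below the filter in WT tissue (3.24 on the log2 scale). The median tissue difference of the 8 was −0.04. In culture all 8 were higher in the mutant (median 0.39, no test). Their part in the rise of Id4 was not tested. Astrocyte markers summed to 2873 in WT tissue and 4391 and 4218 in mutant tissue, and to 3913 and 5966 in WT and mutant culture, with 4 of 7 tested genes higher in mutant tissue. Gfap, a defining astrocyte gene, stayed between 2.69 and 15.9. Oligodendrocyte lineage markers summed to 2191 in WT tissue against 3769 and 3732, and to 1185 against 2244 in culture. The sums of the last 2 lists were higher in mutants of both preparations, as Id4 was. In tissue 6 of 7 tested astrocyte genes and 6 of 6 tested oligodendrocyte genes were higher in mutants, and in culture 7 and 5. Gja1 was lower in mutant tissue (663 against 609 and 581) and Sox10 in mutant culture (53.9 against 29.1). Cspg4, too dim to test, was lower in mutants of both (34.0 against 3.23 and 10.7 in tissue, 40.1 against 23.4 in culture). The part of these cells in the rise of Id4 was not tested.

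Between culture and tissue, Id1, Id2 and Id3 rose in culture in both genotypes, and Id4 fell in both by its brightest probe set. These were 4 of the 6 genes whose tissue and culture means both lay above the filter, where 38.8% of all genes tested were called (19.6% higher, 19.2% lower). Smad1 and Bmpr1a did not pass.

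The ligands and Nog are given as values, with no test read from them. In WT, Bmp6 was at least 81.5-fold higher in culture, since WT tissue lay at the floor, and in mutants it was 29.5-fold higher. Bmp4 was 8.71-fold higher in culture in WT and 3.77-fold in mutants. Nog was 1.43-fold higher in WT culture and 2.95-fold in mutant culture.

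Id3 rose in culture by 3.08 ± 0.14 (8.46-fold, adjusted p = 6.9e-06), with 7.07-fold in WT and 9.68-fold in mutants. Id1 rose by 1.84 ± 0.17 (3.58-fold, adjusted p = 0.00016), with 3.12-fold in WT and 3.98-fold in mutants. Id2 was called at 1.75 ± 0.46 (adjusted p = 0.019), but this joins 9.42-fold in WT and 1.56-fold in mutants, and the interaction given above is the test of that gap. Its call was lost without the intensity trend (adjusted p = 0.094) and without the filter (adjusted p = 0.25). Id4 alone of the family fell in culture, by 0.59 ± 0.08 (adjusted p = 0.00070) where the gene is read from the probe set with the highest mean. Its other probe sets differed by −0.16 and −0.33 and did not pass. In WT these 2 differed by 0.10 and −0.04, so the first was higher in WT culture, and in mutants by −0.35 and −0.54. Smad1 (−0.31 ± 0.14, adjusted p = 0.13) and Bmpr1a (−0.04 ± 0.10, adjusted p = 0.77) did not pass.

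**Figure D4:**
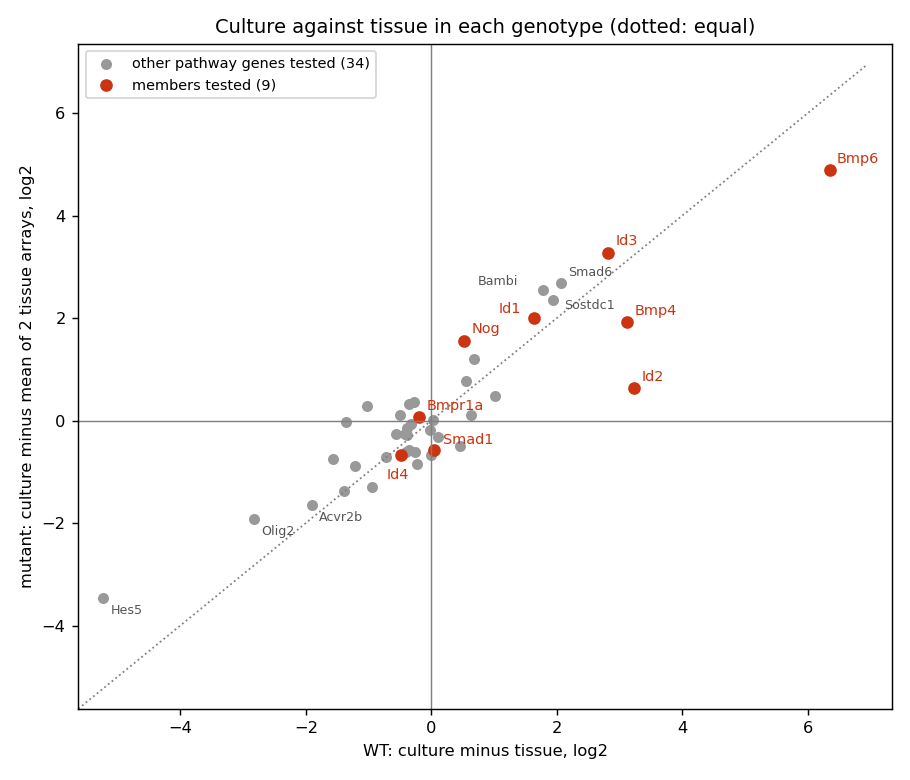
Difference between culture and tissue on the log2 scale in WT (horizontal axis) and in mutants (vertical axis) for the 9 tested genes (red) and 34 other tested genes of the pathway lists (grey), with equal differences on the dotted line. Bmp6, Id3, Bmp4 and Id1 are far above 0 in both genotypes, Id2 lies at 3.24 in WT and 0.64 in mutants, and the WT value of Bmp6 is a lower bound.

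Markers of other cells also moved between the preparations. Of 6 pericyte and mural markers, the contractile genes Acta2 and Tagln carried the summed signal from 865 to 937 in tissue to 20852 and 20968 in culture. The pericyte genes Rgs5 and Kcnj8 were lower there, and Anpep was at the floor on every array. Pdgfrb, another pericyte gene, lay the other way (121 to 136 in tissue, 157 and 174 in culture) and did not pass (adjusted p = 0.077). Endothelial markers, whose cells are known to express Id1 and Id3, summed to 988 to 1125 in tissue and to 173 and 236 in culture, and their part was not tested. Red blood cell genes summed to 8518 to 11634 in tissue and to 9.76 and 14.4 in culture. Meningeal and mesenchymal markers summed to 278 to 381 in tissue and to 410 and 482 in culture. Of these, Col1a1 and Col1a2 were higher in both cultures, Foxc1 and Ptgds lower, and the ranges of the rest overlapped. Choroid plexus markers summed to 81.8 to 99.5 in tissue and to 130 and 151 in culture. Among them Folr1 was higher in both cultures, Kl lower, and the ranges of the rest, Ttr included, overlapped. Microglial markers summed to 565 to 660 in tissue and to 276 and 388 in culture. Of 8 radial glia and progenitor markers 5 were called higher in culture and 2 lower. Of 7 tested astrocyte markers 3 were called higher and 2 lower, where 19.6% of all genes tested were higher and 19.2% lower. Gja1 rose by 1.86, Slc1a3 by 1.72 and Aldh1l1 by 1.31, while Hes5 (−4.21) and Aldoc (−1.02) fell. The part of the contractile cells, the mesenchyme, the glia and the time in culture in these differences was not tested.

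The other genes of the pathway were read from 6 lists of 59 genes, of which 54 had a named probe set and 34 were tested. By genotype across both preparations 2 rose, 0 fell and 32 did not pass (median 0.11), where 0.814% of all genes tested were higher and 0.253% lower. In tissue 5 rose and 1 fell (median 0.05), where 8.59% of all genes tested were higher and 6.70% lower. In culture against tissue 4 rose and 12 fell (median −0.30), where 19.6% were higher and 19.2% lower. As for the members, every pathway call by genotype, and every interaction call, was lost with dim genes tested and without the intensity trend. Over all genes tested each of these medians was 0.00.

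Of 7 tested receptors and co-receptors, Acvr2a, a type II receptor for activins and BMPs, rose in mutants. It read 733 for WT tissue, 1108 and 1157 for mutant tissue, then 499 for WT and 976 for mutant culture. The rise was 0.76 ± 0.11 across both preparations (adjusted p = 0.024) and 0.64 ± 0.10 in tissue (adjusted p = 0.00089). With either of the mutant tissue arrays left out the call across both was lost (adjusted p = 0.12 and 0.15). Acvr1, a type I receptor for BMPs, fell in mutant tissue by 0.75 ± 0.16 (adjusted p = 0.0075), from 297 to 185 and 182. With its probe sets averaged the difference was −0.42 and did not pass (adjusted p = 0.37), and a second probe set had the mutant arrays on both sides of WT (−0.48 and 0.07). Averaging also ended the call of Acvr2a across both preparations (adjusted p = 0.077). In culture against tissue the type II receptor gene Acvr2b fell by 1.76 ± 0.19 (adjusted p = 0.00032), the co-receptor gene Rgmb by 0.46 ± 0.16 (adjusted p = 0.048), and Acvr2a, by the probe set with the highest mean only, by 0.39 ± 0.11 (adjusted p = 0.026). The Rgmb and Acvr2a calls were lost with either mutant tissue array left out (adjusted p of 0.16 to 0.17 and of 0.071 to 0.10).

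Of 1 tested ligand (Bmp5), 6 extracellular modulators, 9 intracellular transducers and inhibitors and 2 responsive transcription factors, none passed by genotype across both preparations or in tissue. Between preparations, Bambi, a decoy receptor gene, read 92.9 for WT tissue, 64.7 and 74.7 for mutant tissue, then 310 for WT and 386 for mutant culture (2.21 ± 0.21, adjusted p = 0.00019). Smad6, an inhibitory Smad, read 21.7 for WT tissue, 11.8 and 25.3 for mutant tissue, then 80.7 for WT and 109 for mutant culture (2.41 ± 0.42, adjusted p = 0.0032). Its tissue mean lay below the filter, so that difference was favoured by it, and the call was lost with dim genes tested (adjusted p = 0.087). Smad7, the other inhibitory Smad, picked after its values were seen, did not pass (−0.14, adjusted p = 0.64). The secreted antagonist gene Sostdc1 rose by 2.18 ± 0.26 (adjusted p = 0.00051) and the BMP-binding protein gene Bmper fell by 1.38 ± 0.15 (adjusted p = 0.00036). The transducer genes Smad5 and Smad4 fell by 1.03 ± 0.13 (adjusted p = 0.00068) and 0.72 ± 0.08 (adjusted p = 0.00038).

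Of 9 tested E proteins and other bHLH genes that meet Id proteins, Olig1, a bHLH gene of the oligodendrocyte lineage, rose in mutants across both preparations by 1.42 ± 0.11 (adjusted p = 0.0018). It read 318 for WT tissue, 923 and 868 for mutant tissue, then 306 for WT and 789 for mutant culture, the order of levels that Id4 showed. In tissue 4 of the 9 rose: Olig1 (1.49), Hes6 (0.64), Olig2 (0.37) and the E protein gene Tcf4 (0.32 ± 0.07, adjusted p = 0.0086). The E protein genes Tcf3 and Tcf12 did not pass in tissue (−0.46 and 0.08, adjusted p = 0.18 and 0.55). In culture Tcf4 and Tcf12 were lower in the mutant by 0.36 and 0.54. For both, the difference between the genotype effects passed (adjusted p = 0.0086 and 0.026), but not with the deposited scaling kept (0.054 and 0.11), where the rise of Tcf4 in tissue was lost too (adjusted p = 0.25). With probe sets averaged, the tissue calls of Tcf4 and Olig2 were lost (adjusted p = 0.11 and 0.084). Between preparations 5 of the 9 fell, among them Hes5, a Notch effector (−4.21 ± 0.33), Olig2 (−2.31), Hes6 (−1.14) and Tcf3 (−1.10). The call of Tcf3 was lost with dim genes tested (adjusted p = 0.17) and without the trend (adjusted p = 0.056).

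The profiles of the 9 tested members over the 5 arrays were compared with those of all tested genes. By the root mean square difference of log2 values centred on each gene's mean, the nearest gene was another member for 0 of the 9. So few members among 11063 genes would seldom be nearest to each other, so this count cannot show whether they share a profile. The nearest member ranked 82 for Bmp6, 129 for Id3, 167 for Bmp4, 245 for Id4, 441 for Id1 and 461 for Nog. It ranked 1191 for Id2, 2762 for Smad1 and 6813 for Bmpr1a. No expectation for these ranks was computed. For Id4 the 5 nearest genes were Zbtb20, a zinc finger factor (0.05), Gprasp2 (0.06), Neurod1, a neuronal bHLH factor (0.08), Cdo1, a cysteine dioxygenase (0.09) and the kinase gene Hipk2 (0.10). The nearest member to Id4 was Smad1 (0.31, rank 245). With 5 arrays this likeness is a description of levels only.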

How the data were processed

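The authors deposited linear signal intensity, 1 value per probe set; which software made it was not given in the sources used here. Detection calls were left aside. From the values, each array had been scaled to a trimmed mean of 150. Array medians differed by 0.183 (log2), so arrays were quantile normalized, values below the pooled 20th percentile (5.15) set to it, and log2 taken. Of 45101 probe sets, 34958 had 1 gene symbol in the platform annotation, 932 several and 9211 none here; 64 controls were left out. The probe set with the highest mean stood for a gene (18193), and genes with a mean above the pooled median (4.80) were tested (11063). Limma 3.58.1 (R 4.3.3, with an intensity trend) gave differences, SEs and Benjamini-Hochberg adjusted p-values over all genes tested, called below 0.05. Its differences were checked on simulated data. The simulated noise was equal at every intensity, so the trend itself was not tested. Models were preparation plus genotype (5 arrays, 2 residual and 5.95 prior degrees of freedom), tissue genotype (3 arrays, 1 and 10.9) and 4 groups for the interaction (1 and 8.57). Groups of 1 array were assumed to vary like the mutant tissue arrays. Culture alone, 1 array against 1, had no test. Fold changes come from these floored log2 values, and the number of arrays limits precision. Members and lists were chosen with earlier results of these data known. All members were described; other pathway genes were named where they passed in a comparison (the 4 largest where more did). Marker lists are given as summed deposited signal of 1 probe set a gene. Alternatives were the deposited scaling, other floors and filters, averaged probe sets, no trend, and each mutant tissue array left out.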

Additional observations from a re-analysis of the deposited data

Results flagged for a closer look

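The genotype effect in culture minus that in tissue passed the test for Id2 (−2.60 ± 0.12, adjusted p = 1.3e-05) and Smad1 (−0.61 ± 0.14, adjusted p = 0.044), both higher in mutant tissue with little difference in culture. It passed for 4 other genes of the pathway lists. Tcf4 differed by −0.68 ± 0.11 (adjusted p = 0.0086) and Tcf12 by −0.62 ± 0.13 (adjusted p = 0.026), both lower in mutant culture. Olig2 differed by 0.90 ± 0.19 (adjusted p = 0.028) and Hes5 by 1.77 ± 0.15 (adjusted p = 0.00068), both with a larger excess in mutant culture (1.27 and 1.64) than in mutant tissue (0.37 and −0.12). Each rests on 1 culture array of each genotype. All 6 were lost with dim genes tested, without the intensity trend, and with the probe sets of a gene averaged.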

How the results depend on the processing

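Across both preparations 1 member was called, with 0 when dim genes were tested too (1 at an unadjusted p under 0.05) and 0 without the intensity trend (2 unadjusted), and 1 with either mutant tissue array left out. In tissue 3 were called, with 0 and 0 under the same settings (4 unadjusted each). For the interaction 2 were called, with 0 when dim genes were tested, 0 without the trend and 0 with a gene's probe sets averaged (4, 3 and 4 unadjusted). Between preparations 6 were called, and 4 to 6 under the other settings that kept all 5 arrays. Of the 6, Bmp4 and Bmp6 passed the filter only through culture, so their calls are not read. That leaves 4 calls among the 6 genes with tissue and culture means above the filter. Keeping the deposited scaling changed none of these member counts. Over all genes, calls across both preparations were 118, against 0 with dim genes tested, 35 with averaged probe sets, 4 without the trend and 33 with either array left out. In tissue they were 1691, against 389, 489 and 2 under the first 3 settings. For the interaction they were 496, against 4 with averaged probe sets, 0 without the trend and 802 with a stricter filter, and between preparations 4297, against 1894 with dim genes tested and 2850 or 2871 with an array left out. The fall of Acvr2a in culture turned to 0.0083 (adjusted p = 0.96) with averaged probe sets. The cause of these changes was not tested. No paired analysis was possible because only mutant tissue has more than 1 array and the replicate numbers of the other groups only name a sample. Signals near or below the floor of 5.15 carry no order. Among the members these were Bmp6 in WT tissue, and 1 Bmpr1a probe set and 1 Bmp7 probe set on all 5 arrays. Another Bmp7 probe set was there on the 2 mutant tissue arrays.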

Other observations

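Of the pathway genes too dim on average to be tested, 2 had a high signal in mutant tissue alone; both were picked after their values were seen, and neither was tested. Msx3, a homeodomain gene of the dorsal neural tube, read 33.6 for WT tissue, 120 and 122 for mutant tissue, and 3.63 and 3.61 in WT and mutant culture. Neurog2, a proneural bHLH gene of the pallium, read 8.93 for WT tissue, 71.6 and 60.5 for mutant tissue, and 4.11 and 5.07 in WT and mutant culture. Bmp2, another BMP ligand, read 0.629 for WT tissue, 12.6 and 10.7 for mutant tissue, and 28.4 and 20.01 in culture.

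The genes whose centred log2 profile lay nearest to 2 other members were also read. For Bmp6 the nearest was Crhbp, a binding protein for corticotropin-releasing hormone (root mean square difference 0.21), which like Bmp6 was at the floor in WT tissue, at 4.13 and 3.58 in mutant tissue and at 8.69 and 8.97 in culture. For Id2 the nearest was Camk4, a calcium-dependent kinase gene (0.16), at 2.91 in WT tissue, 5.89 and 5.70 in mutant tissue and 6.21 and 6.51 in culture.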
